A study of Homo sapiens with 12 samples.

Results

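The UGT1A locus on chromosome 2 encodes 9 UDP-glucuronosyltransferases, UGT1A1, UGT1A3, UGT1A4, UGT1A5, UGT1A6, UGT1A7, UGT1A8, UGT1A9 and UGT1A10. They were taken by name from the deposited count table and made up 9 of its 43557 rows. Poly(A) RNA had been sequenced in 12 libraries. Per the labels, 6 come from T24 and 6 from RT4, established human lines from bladder tumours, of which T24 is the less differentiated and RT4 the papillary one. In each line 3 libraries are labelled as knockdown of FTO by short hairpin (shFTO) and 3 as its control (shNC), and FTO removes methyl groups from adenosines in RNA. Every library carries the genotype label "homo", and its batch number (1, 2 or 3) is the same as its replicate number. The labels do not tell whether replicates were separate cultures or a line was 1 clone, so any p-value here rests on the spread among libraries alone. The 9 genes were chosen with their values in all 4 groups known, so their levels are given as a description without a test.

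Glucuronidation joins glucuronic acid from UDP-glucuronic acid to bilirubin, bile acids, steroids, phenols and drugs, which makes them soluble enough to leave the cell through export pumps. The members share one set of downstream exons, and each has its own promoter and its own first exon. The first exon encodes the part of the enzyme that binds the substrate, and the shared exons encode the part that binds UDP-glucuronic acid and the membrane anchor. UGT1A1, UGT1A3, UGT1A4, UGT1A6 and UGT1A9 are known from the liver, and UGT1A7, UGT1A8 and UGT1A10 are known mainly from the gut and other tissues outside the liver. The transcription factors AHR and NFE2L2 (NRF2), and the nuclear receptors PXR and CAR, are known to act on promoters of the locus.

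How the members are told apart matters for every value below, so their splice junctions are shown first. Each line gives the last 40 bases of a first exon in lower case and the first 20 bases of the shared exon 2 (chr2:233767034-233767165) in capitals, 5′ to 3′ on the plus strand, from GENCODE release 29 transcripts (GRCh38).
UGT1A8: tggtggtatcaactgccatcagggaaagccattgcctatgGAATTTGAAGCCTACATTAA
UGT1A10: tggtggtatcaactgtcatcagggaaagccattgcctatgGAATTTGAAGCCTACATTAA
UGT1A9: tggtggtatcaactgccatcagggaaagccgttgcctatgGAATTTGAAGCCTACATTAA
UGT1A7: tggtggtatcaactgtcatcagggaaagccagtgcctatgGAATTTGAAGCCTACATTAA
UGT1A6: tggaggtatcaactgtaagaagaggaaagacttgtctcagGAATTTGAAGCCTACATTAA
UGT1A5: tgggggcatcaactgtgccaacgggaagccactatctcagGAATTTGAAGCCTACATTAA
UGT1A4: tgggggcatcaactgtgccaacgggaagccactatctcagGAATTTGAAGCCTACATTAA
UGT1A3: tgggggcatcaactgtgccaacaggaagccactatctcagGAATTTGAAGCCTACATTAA
UGT1A1: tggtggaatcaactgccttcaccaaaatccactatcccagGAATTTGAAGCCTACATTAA
The 20 bases after the junction were the same in all 9 transcripts. The 40 bases before it did not differ between UGT1A4 and UGT1A5, and they differed at 1 base between UGT1A7 and UGT1A10 and at 13 bases between UGT1A1 and UGT1A10. Shared exons 2 to 5 span 132, 88, 220 and 1038 bases, 1478 in all. The part of each gene's annotated exons that no other member shares ran from 472 bases in UGT1A3 to 2902 bases in UGT1A6, and 1060 of the latter also lie opposite annotated antisense genes.

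First exons fall into close and distant groups. Over their coding part, the first exons of UGT1A7, UGT1A8, UGT1A9 and UGT1A10 were 92.0 to 94.0% identical, and those of UGT1A3, UGT1A4 and UGT1A5 were 93.2 to 94.1% identical. Every other pair was 53.5 to 62.9% identical. No run of 150 bases, the read length, was shared by the first exons of any 2 members. Runs of 100 bases were shared only among UGT1A8, UGT1A9 and UGT1A10, and 3.76% of such runs in UGT1A10 also stood in UGT1A8. The 90 coding bases in which UGT1A7 and UGT1A10 differ most, bases 278 to 367 of the coding sequence, are shown because these 2 members carried the highest counts of the locus. Capitals mark a base that differs from UGT1A10.
UGT1A10: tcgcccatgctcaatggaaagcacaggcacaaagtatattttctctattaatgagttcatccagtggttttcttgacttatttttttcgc
UGT1A7: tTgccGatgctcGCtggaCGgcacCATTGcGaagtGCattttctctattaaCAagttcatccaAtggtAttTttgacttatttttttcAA
UGT1A8: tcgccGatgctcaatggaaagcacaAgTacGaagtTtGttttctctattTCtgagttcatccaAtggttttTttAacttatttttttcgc
UGT1A9: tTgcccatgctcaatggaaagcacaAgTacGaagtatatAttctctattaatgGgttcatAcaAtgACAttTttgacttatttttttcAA
UGT1A7 (chr2:233682215-233682304) differed from UGT1A10 (chr2:233636800-233636889) at 21 of these bases, UGT1A8 at 11 and UGT1A9 at 14.

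The libraries held 31291047 to 102798895 counts each. FTO itself was 35.2 ± 1.25 CPM in T24 shNC and 25.5 ± 1.09 in T24 shFTO (SD, n = 3), and 46.2 ± 1.01 in RT4 shNC and 68.9 ± 3.29 in the RT4 libraries labelled shFTO. CPM is the read count relative to the TMM-scaled library size. The RT4 direction goes against the label. Each difference below, in T24 as in RT4, therefore compares the libraries labelled shFTO with those labelled shNC, also where a gene is said to rise or fall. Libraries of a group correlated at r = 0.996 to 0.998 over 16205 genes (log2(CPM + 1)), and libraries of different groups at 0.697 to 0.782, also within a line. The closest groups were T24 shNC and RT4 shFTO, of different lines, at 0.7794 to 0.782. The T24 groups correlated with each other at 0.7046 to 0.7075 and the RT4 groups at 0.7598 to 0.7623. Of 11 urothelial markers, 7 to 9 were under 1 CPM in every group, and UPK3A and UPK1B were at 0 in 3 groups. The 11 summed to 47.96 to 51.95 CPM in T24 shNC and 79.6 to 80.4 in T24 shFTO. In RT4 they summed to 12.1 to 13.3 CPM in shNC and 41.9 to 44.3 in shFTO. Among them, PPARG was 38.0, 64.2, 2.94 and 25.4 CPM in the same order of groups. Summed hepatocyte markers (10 genes, ALB among them) were 23950 to 25000 CPM in T24 shFTO and 4.44 to 38.0 CPM in the other libraries. Summed fibroblast markers (7 genes) were 7392 to 7728 CPM in RT4 shFTO and 1.31 to 165.6 CPM elsewhere. Most of the RT4 shFTO sum was COL1A2 (6499 CPM) and COL1A1 (778.5 CPM). Of the same list, DCN was 0.431 CPM there and 1.64 in T24 shNC, and PDGFRB was 5.39 CPM there and 15.7 in T24 shFTO. The part of these differences in the results below was not tested, and in bulk RNA fewer cells of a type and less RNA per cell cannot be told apart.

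Transcripts of the locus were abundant in T24 shNC and in RT4 shFTO, scarce in T24 shFTO, and not counted in RT4 shNC. The counts of the 9 members summed to 549, 546 and 561.3 CPM in the T24 shNC libraries and to 18.2, 19.1 and 20.7 CPM in T24 shFTO. They summed to 468.3, 487.4 and 483.1 CPM in RT4 shFTO and to 0 counts in each of the 3 RT4 shNC libraries. Both abundant groups thus lay far from the others, without overlap. The mean of T24 shNC was 28.6-fold that of T24 shFTO and 1.15-fold that of RT4 shFTO. RT4 shNC had the deepest sequencing, 225589963 counts over the group, and 3 counts there correspond to 0.0123 CPM. Against that limit the locus was at least 38970-fold higher in RT4 shFTO, a bound that covers counting error only. Of all tested genes, 5.44% had 0 counts in all RT4 shNC libraries. The 9 members were chosen with this known, so nothing is read from their count of 9.

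**Figure D1:**
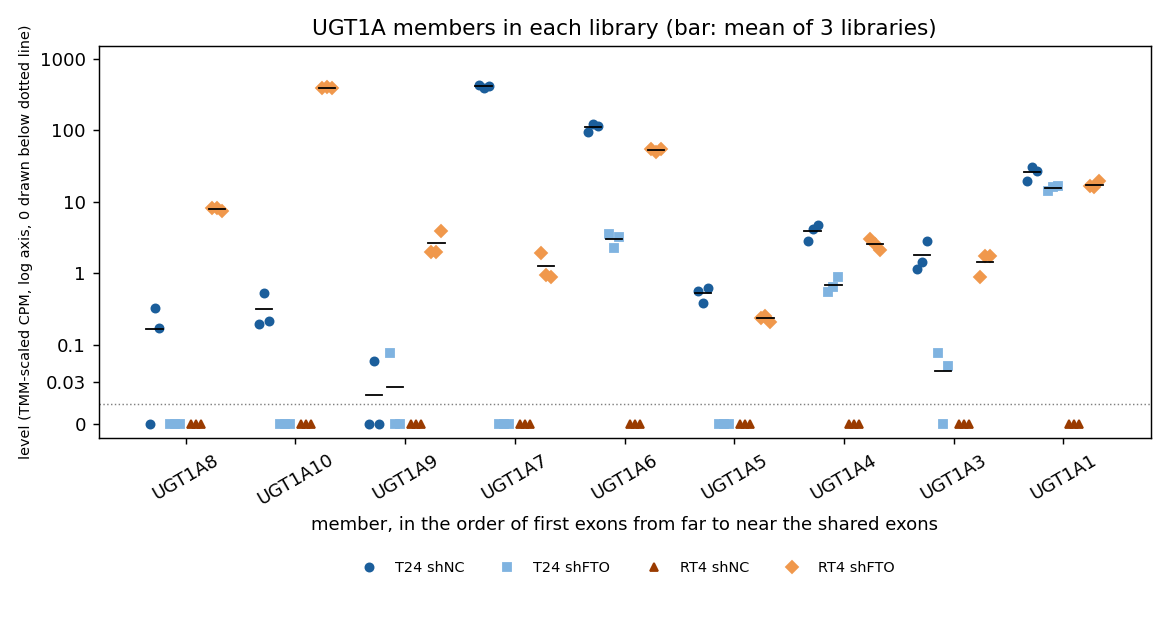
Level of each UGT1A member in every library (CPM after TMM scaling, log axis, with 0 below the dotted line); points are libraries and bars are means of 3. UGT1A7 stands near 400 CPM in T24 shNC and UGT1A10 in RT4 shFTO, while every member is at 0 in RT4 shNC.

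UGT1A7, an enzyme known from the upper gut that conjugates polycyclic and phenolic carcinogens, carried most counts of T24 shNC. Its first exon lies at chr2:233681938-233682792. It had 15094, 12975 and 19308 counts in the T24 shNC libraries, or 409.8 ± 22.0 CPM (SD, n = 3), and 0 counts in all 3 T24 shFTO libraries. It was therefore at least 16790-fold lower in T24 shFTO, with 3 counts over the group as the limit. RT4 shFTO held 73, 34 and 34 counts (1.27 ± 0.597 CPM), so the order was T24 shNC far above RT4 shFTO, with T24 shFTO and RT4 shNC both at 0.

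UGT1A10, known from the intestine and from steroid and phenol conjugation, was the leading member of RT4 shFTO. Its first exon, at chr2:233636454-233637377, starts 130.6 kb before exon 2. The RT4 shFTO libraries had 14252, 14347 and 15049 counts (393.6 ± 11.9 CPM) and RT4 shNC had none, a difference of at least 31980-fold. T24 shNC had 7, 18 and 10 counts (0.316 ± 0.190 CPM) and T24 shFTO had 0. UGT1A10 was thus 1244-fold higher in RT4 shFTO than in T24 shNC, the reverse of UGT1A7, which was 323-fold higher in T24 shNC.

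UGT1A8 and UGT1A9 were much lower and were counted mainly in RT4 shFTO. UGT1A8, an intestinal enzyme with the farthest first exon (chr2:233617645-233618562), had 304, 285 and 282 counts there (7.86 ± 0.427 CPM). It had 0, 11 and 8 counts in T24 shNC and 0 in the other 6 libraries. UGT1A9, a liver and kidney enzyme that conjugates phenols such as propofol, had 74, 71 and 150 counts in RT4 shFTO (2.64 ± 1.11 CPM), with the third library at 3.92 CPM and the others near 2. Its first exon lies at chr2:233671853-233672789. In T24 it had 0, 2 and 0 counts in shNC and 4, 0 and 0 in shFTO, too few for a fold.

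UGT1A6, which conjugates small planar phenols and serotonin, had the second highest counts in both abundant groups. Its coding first exon lies at chr2:233692866-233693865. In CPM it was 95.2, 121.8 and 112.7 in T24 shNC, 3.50, 2.26 and 3.20 in T24 shFTO, and 53.7, 50.1 and 54.3 in RT4 shFTO. The 3 groups did not overlap, and RT4 shNC had 0 counts. The mean was 36.8-fold lower in T24 shFTO than in T24 shNC, and T24 shNC was 2.08-fold above RT4 shFTO. The strand used in counting was not stated in the labels, so reads of antisense genes opposite UGT1A6 may be included.

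UGT1A1, the enzyme that conjugates bilirubin, was the member that varied least among the 3 groups in which it was counted. Its first exon (chr2:233760248-233761151) is the nearest to exon 2. It was 19.4, 31.1 and 26.5 CPM in T24 shNC and 14.0, 16.2 and 16.5 CPM in T24 shFTO. It was 16.4, 15.9 and 19.5 CPM in RT4 shFTO, and RT4 shNC had 0 counts. The T24 groups did not overlap, with shFTO 1.65-fold lower, while RT4 shFTO overlapped both. Neighbours in the order T24 shNC, RT4 shFTO, T24 shFTO therefore did not differ beyond their spread. In T24 shFTO, the group with high hepatocyte markers, its mean was 15.6 ± 1.40 CPM, and the part of those markers in that level was not tested.

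UGT1A3, UGT1A4 and UGT1A5 were low in every group. UGT1A4, which conjugates tertiary amines such as lamotrigine, was 3.95 ± 1.02 CPM in T24 shNC, 0.695 ± 0.180 in T24 shFTO and 2.59 ± 0.443 in RT4 shFTO. Its first exon lies at chr2:233718778-233719687. UGT1A3, which conjugates bile acids, lies next to it (chr2:233729108-233729993). It had 41, 48 and 132 counts in T24 shNC, 4, 0 and 2 in T24 shFTO and 33, 62 and 66 in RT4 shFTO. For both genes T24 shNC and RT4 shFTO overlapped, and T24 shFTO lay below both. UGT1A5, an enzyme with little known activity (chr2:233712992-233713858), had 13 to 29 counts per T24 shNC library, 8 to 9 per RT4 shFTO library and none elsewhere.

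Of the 9 members, 7 did not overlap between the T24 groups and were lower in shFTO, against 41.4% of all tested genes. UGT1A8 and UGT1A9 overlapped. In RT4 all 9 lay higher in shFTO without overlap, against 38.9% of tested genes. Since the members were chosen on these contrasts, nothing is read from either count.

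The division of counts among members differed by group more than between replicates. In T24 shNC, UGT1A7 took 70.7 to 78.3% of the counts of the locus per library (mean 74.2%), UGT1A6 19.9% and UGT1A1 4.65%. In T24 shFTO, UGT1A1 took 76.9 to 84.8%, UGT1A6 15.5% and UGT1A4 3.57%. In RT4 shFTO, UGT1A10 took 81.4 to 83.2%, UGT1A6 11.0%, UGT1A1 3.60% and UGT1A8 1.64%. In T24 shNC replicate 1 the 95% Wilson interval of the UGT1A7 share was 77.7 to 78.8%, for counting error only. The other libraries of that group, at 70.7 and 73.7%, lay outside it, so replicates differed by more than counting error. UGT1A7, UGT1A8, UGT1A9 and UGT1A10 together made up 74.3% of the locus in T24 shNC and 84.5% in RT4 shFTO, with a different gene of the 4 in the lead.

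**Figure D2:**
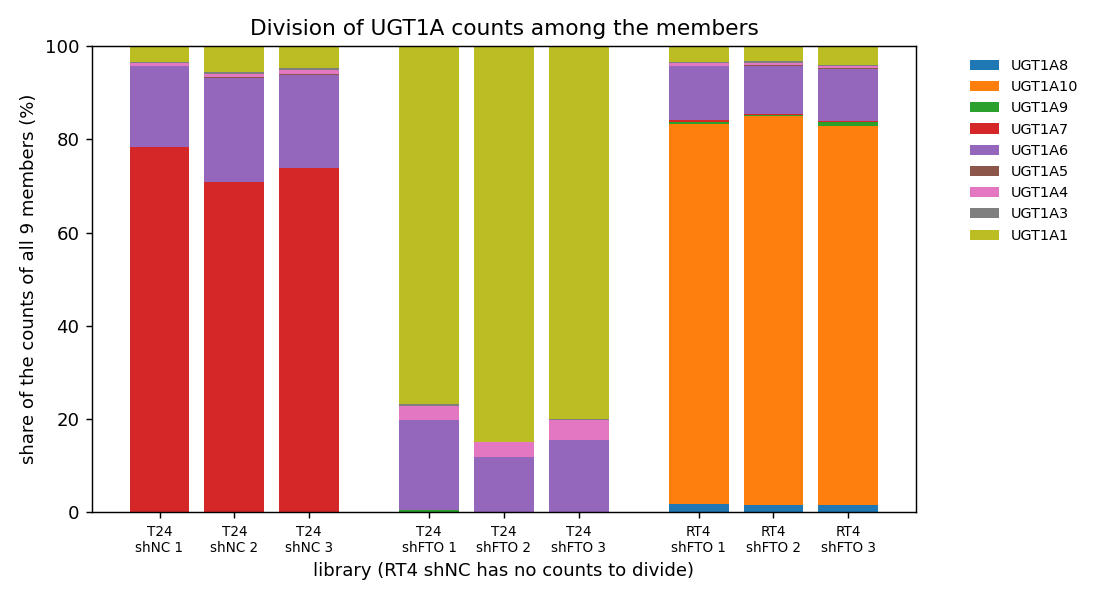
Share of each UGT1A member in the counts of all 9 members (%), 1 bar per library. UGT1A7 (74.2% on average) leads in T24 shNC, UGT1A1 (80.5%) in T24 shFTO and UGT1A10 (82.1%) in RT4 shFTO.

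Counts depend on length, so the members were also set side by side per kb of exon not shared with another member. On that scale UGT1A7 was 165.6 ± 8.88 CPM per kb in T24 shNC, where UGT1A6 followed at 37.9 ± 4.66 and UGT1A1 at 11.4 ± 2.63. In RT4 shFTO, UGT1A6 stood at 18.2 ± 0.774, UGT1A8 at 8.51 ± 0.463 and UGT1A1 at 7.71 ± 0.853 CPM per kb. As shares per unshared base, UGT1A7 held 73.9% in T24 shNC, UGT1A1 78.4% in T24 shFTO and UGT1A10 90.7% in RT4 shFTO. The leading member was thus the same on both scales in each group. The UGT1A10 share was higher per unshared base than per count (82.1%), but it was 82.6% per base of first exon. In RT4 shFTO, UGT1A1 stood at 19.1 and UGT1A8 at 8.56 CPM per kb of first exon, the reverse of their order above. The unshared exons of UGT1A6 span 2902 bases and its first exon 1000, so these values depend on the length chosen. Level did not follow the position of the first exon, since the far UGT1A10 led in one group, the middle UGT1A7 in another and the near UGT1A1 in the third.

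**Figure D3:**
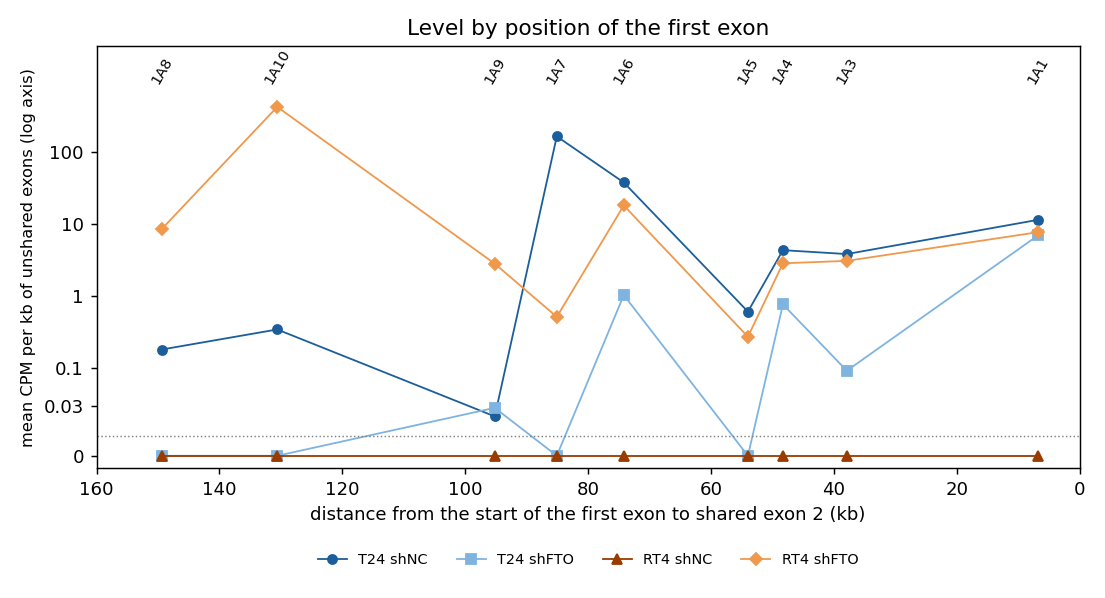
Mean level per kb of unshared exon (log axis, 0 below the dotted line) against the distance in kb from the start of each member's first exon to shared exon 2; lines join members of 1 group. The peak lies at UGT1A10 (130.6 kb) in RT4 shFTO, at UGT1A7 (85.1 kb) in T24 shNC and at UGT1A1 (6.8 kb) in T24 shFTO.

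The counts themselves bear on how reads of the shared exons were handled. A read given to every member that contains it would raise all 9 counts by the same number, so the smallest member count of a library is the most that such reads can have added. That smallest count was 0 to 9 in every library, while another member of the same library reached up to 19308. In T24 shNC replicate 2, for example, UGT1A9 had 2 counts and UGT1A7 12975. Reads of exons 2 to 5 were therefore not added to all members, and the values rest on reads that touch unshared exons or on a division of shared reads that the files do not show. Within the close family, UGT1A8 counts were 1.87 to 2.13% of UGT1A10 counts in RT4 shFTO, and UGT1A10 counts were 0.0464 to 0.139% of UGT1A7 counts in T24 shNC. How much of such small counts comes from reads of the leading member was not tested, and the low counts of UGT1A8 and UGT1A9 are uncertain for that reason.

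Promoter windows were read from RefSeq (GRCh38.p14), which had an entry for 8 of the 9 members and 2 windows for UGT1A6. Each window runs from 250 bases before to 50 bases after the transcript start. Shown are the 200 bases from 220 to 21 before the start of UGT1A7, UGT1A8 and UGT1A9, whose first exons are close in sequence while their levels are far apart. Capitals mark GCGTG on either strand (here CACGC), the core bound by AHR with ARNT.
UGT1A7: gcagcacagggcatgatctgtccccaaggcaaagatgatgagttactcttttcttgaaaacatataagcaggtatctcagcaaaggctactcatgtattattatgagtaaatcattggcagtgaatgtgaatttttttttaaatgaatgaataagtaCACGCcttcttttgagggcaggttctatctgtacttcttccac
UGT1A8: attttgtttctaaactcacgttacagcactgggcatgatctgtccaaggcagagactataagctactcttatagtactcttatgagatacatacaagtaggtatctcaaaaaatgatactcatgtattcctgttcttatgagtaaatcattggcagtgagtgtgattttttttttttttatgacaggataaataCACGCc
UGT1A9: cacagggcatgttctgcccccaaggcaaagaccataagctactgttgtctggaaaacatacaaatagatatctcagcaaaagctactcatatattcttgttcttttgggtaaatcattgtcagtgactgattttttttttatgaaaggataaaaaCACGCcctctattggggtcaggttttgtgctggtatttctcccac
The windows shown are chr2:233681681-233681880 for UGT1A7, chr2:233617413-233617612 for UGT1A8 and chr2:233671678-233671877 for UGT1A9, all on the plus strand. The match lies 63, 65 and 26 bases before the start of UGT1A7, UGT1A9 and UGT1A8. The UGT1A7 and UGT1A9 windows were 78.6% identical, and UGT1A8 was 64.5% identical to UGT1A7 and 64.3% to UGT1A9. GCGTG stood in 6 of the 9 member windows and in 36.5% of 35116 RefSeq windows. The antioxidant response core TGACNNNGC, through which NFE2L2 acts, stood in 2 member windows (UGT1A5 and the second window of UGT1A6) and in 13.3% of all. CAAAGT, part of the HNF4 site, stood in 3 and in 11.9% of all windows, and TATAAA in 1 and in 11.5%. Both strands were searched, none of these 4 motifs contains another, and a match in a window is not a bound site.

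Of 15 listed pseudogenes and neighbours, 10 could be tested, by edgeR's quasi-likelihood test with BH adjustment over 23070 genes and a threshold of 0.05. In T24, 2 rose and 6 fell in shFTO, and in RT4, 9 rose and none fell. Over all tested genes 37.2% rose and 40.8% fell in T24, and 38.6% rose and 40% fell in RT4. The median log2 change of the list was -1.01 in T24 and 1.28 in RT4, also with genes at 0 set to their bound, and over all genes it was -0.055 and -0.0038. USP40, a ubiquitin protease upstream of the cluster, was 121.3 ± 6.56, 67.2 ± 2.56, 82.1 ± 1.71 and 92.7 ± 1.23 CPM in T24 shNC, T24 shFTO, RT4 shNC and RT4 shFTO. HJURP, a centromere histone chaperone downstream of it, was 46.0 ± 0.787, 91.8 ± 2.56, 39.0 ± 2.54 and 115.0 ± 1.11 CPM. DGKD, a diacylglycerol kinase, fell by 1.17 on the log2 scale in T24 (SE 0.035, edgeR BH-adjusted p = 1.19e-14). Genes on both sides were thus counted in RT4 shNC, where all 9 members were at 0. The USP40 and DGKD rises in RT4 were small (0.18 and 0.17 on the log2 scale). On library totals both values were below 0, and the DGKD fall was called (edgeR BH-adjusted p = 0.0162). Without the low-count filter neither gene was called. Between the members, the pseudogene UGT1A2P and DNAJB3, a processed copy of a chaperone gene, had 0 counts in RT4 shNC. MROH2A, the next gene downstream, followed the same order of groups as the summed locus apart from the top pair, with 3.48 ± 0.120, 0.208 ± 0.093, 0.045 ± 0.0009 and 7.24 ± 0.590 CPM. These 3 genes were picked after their values were seen.

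**Figure D4:**
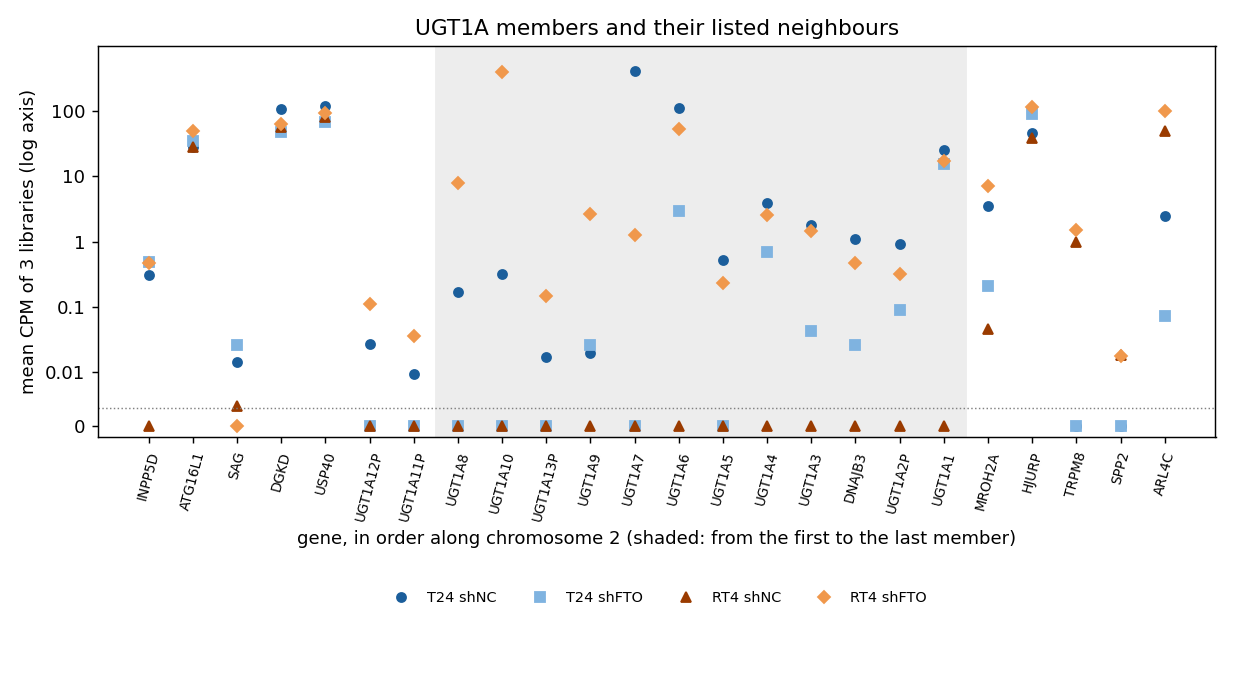
Mean level of the 9 members and 15 listed neighbours (CPM, log axis, 0 below the dotted line) in their order along chromosome 2; the shaded part runs from the first to the last member. In RT4 shNC all members and the genes between them are at 0, as are UGT1A11P, UGT1A12P and INPP5D upstream. MROH2A, the next gene downstream, is at 0.045 CPM there, while USP40 upstream (82.1 CPM) and HJURP downstream (39.0 CPM) are well counted.

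Among 22 listed regulators of the locus, 20 were tested, of which 14 rose and 4 fell in T24 and 9 rose and 6 fell in RT4 (edgeR BH-adjusted p under 0.05). Of all tested genes 78% were called in T24 (37.2% up, 40.8% down) and 78.6% in RT4 (38.6% up, 40% down). In RT4, 3 of the 20 regulators were at 3 counts or fewer in both groups, so whether they are called rests on few counts. The median log2 change was 3.23 in T24, with or without bounds, and 0.13 in RT4, or 0.057 with genes at 0 set to their bound. AHR, the receptor for dioxins and other planar ligands, rose in both lines, from 61.8 ± 2.86 to 287.7 ± 3.12 CPM in T24 and from 56.0 ± 2.55 to 241.5 ± 4.57 CPM in RT4. Its log2 changes were 2.22 (SE 0.041, edgeR BH-adjusted p = 1.98e-17) and 2.11 (SE 0.040, edgeR BH-adjusted p = 3.47e-17). Their difference of 0.11 was not called (edgeR BH-adjusted p = 0.0746), and on library totals it was 0.20 and called (edgeR BH-adjusted p = 0.00191). It was also called without the low-count filter (0.25, edgeR BH-adjusted p = 0.0112), without RT4 shNC replicate 1 (0.16, edgeR BH-adjusted p = 0.00996) and without T24 shNC replicate 2 (0.14, edgeR BH-adjusted p = 0.0495). AHR thus rose in both lines, while the locus was lower in T24 shFTO and higher in RT4 shFTO. NFE2L2, the oxidative stress factor NRF2, was lowest where the locus was highest, at 67.3 ± 1.18 CPM in T24 shNC against 210.2 ± 11.0 in T24 shFTO. In RT4 it was 127.1 ± 4.24 and 140.8 ± 6.20 CPM, a log2 change of 0.15. That change was -0.12 and called on library totals (edgeR BH-adjusted p = 0.013), and it was not called without the low-count filter.

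KEAP1, the adaptor that sends NFE2L2 to degradation, was picked after its values were seen. It was 0.107 to 0.313 CPM in the T24 shNC libraries (20 counts in all) and 90.6 ± 4.75, 82.5 ± 0.426 and 89.3 ± 5.12 CPM in T24 shFTO, RT4 shNC and RT4 shFTO. Its log2 change was 9.01 in T24 (edgeR BH-adjusted p = 5.78e-19) and 0.11 in RT4 (edgeR BH-adjusted p = 0.0689). KEAP1 was therefore near 0 in 1 of the 2 groups with an abundant locus and not in the other. The liver factor HNF4A was high in T24 shFTO alone among the 4 groups, at 261.8 ± 6.85 CPM, where it rose from 1.85 ± 0.552 CPM in T24 shNC. It had 5 counts over RT4 shNC and 4 over RT4 shFTO. CDX2, an intestinal factor, was 1.25 ± 0.081 CPM in T24 shFTO and 0 in all other libraries. NR3C1, the glucocorticoid receptor, fell by 2.24 in T24 and rose by 0.94 in RT4 on the log2 scale (edgeR BH-adjusted p = 7.79e-19 and 1.93e-14). It went from 170.4 ± 2.09 to 36.1 ± 0.371 CPM in T24.

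The listed target genes of NFE2L2 fell in T24 and rose in RT4 with 1 exception. Of 16, 15 fell and 1 rose in T24, and all 16 rose in RT4, with medians of -1.96 and 2.02 on the log2 scale. Of all tested genes, 40.8% fell and 37.2% rose in T24, and 38.6% rose and 40% fell in RT4. The difference between the lines was below 0 and called for all 16, against 38.7% of tested genes (75% were called in either direction). TXNRD1, thioredoxin reductase, was 1133 ± 5.91 CPM in T24 shNC and 313.0 ± 12.9 in T24 shFTO, then 479.4 ± 2.48 in RT4 shNC and 615.1 ± 12.5 in RT4 shFTO. Its changes were -1.86 (SE 0.032) and 0.36 (SE 0.031) on the log2 scale, and their difference of -2.21 had an edgeR BH-adjusted p of 5.21e-17. TKT, transketolase, fell by 2.86 and rose by 0.79. ME1, malic enzyme, was the 1 target that rose in T24, by 0.97. It is named after its values were seen. AKR1C1, AKR1C2 and AKR1C3 are near copies of each other, so their split is uncertain.

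Targets of AHR were mixed. Of 5 tested, 2 rose and 3 fell in T24 (37.2% and 40.8% of all tested genes) and 3 rose and 2 fell in RT4 (38.6% and 40%). CYP1B1, a steroid and carcinogen hydroxylase, went from 78.2 ± 2.73 to 1.13 ± 0.362 CPM in T24 and from 15.2 ± 0.469 to 398.8 ± 5.997 CPM in RT4. ALDH3A1, an aldehyde dehydrogenase, went from 182.7 ± 7.02 to 0.466 ± 0.085 CPM in T24 and from 0 counts to 51.7 ± 2.14 CPM in RT4, at least 4198-fold. TIPARP, an AHR-induced ADP-ribosyltransferase, rose by 0.81 in T24 and fell by 1.03 in RT4. The medians were -2.84 and 4.51, or -2.78 and 4.57 with genes at 0 at their bound. Of these named targets, CYP1B1 and ALDH3A1 were therefore highest in T24 shNC and RT4 shFTO, and TIPARP was not. CYP1A1 was 0.768, 72.8, 3.12 and 1.185 CPM in T24 shNC, T24 shFTO, RT4 shNC and RT4 shFTO. AHRR was 10.2, 1.485, 3.91 and 92.65 CPM in the same order. Both are named after their values were seen.

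Of 6 tested targets of PXR and CAR, 4 rose and 1 fell in T24, and 2 rose in RT4, against 37.2%, 40.8% and 38.6% of all tested genes. These genes were scarce, and requiring 1 CPM in 3 libraries left only 2 called in T24 and 1 in RT4. CYP3A5 was 12.9 ± 0.462, 4.14 ± 0.797, 2.53 ± 0.021 and 3.81 ± 0.213 CPM in T24 shNC, T24 shFTO, RT4 shNC and RT4 shFTO. CYP2B6 was 15.9 ± 2.08 CPM in T24 shFTO and 0 elsewhere, and CYP3A7 stayed between 0.076 and 0.532 CPM with no call. The medians were 5.69 in T24 (3.72 with bounds) and 0.53 in RT4 (0.63 with bounds).

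**Figure D5:**
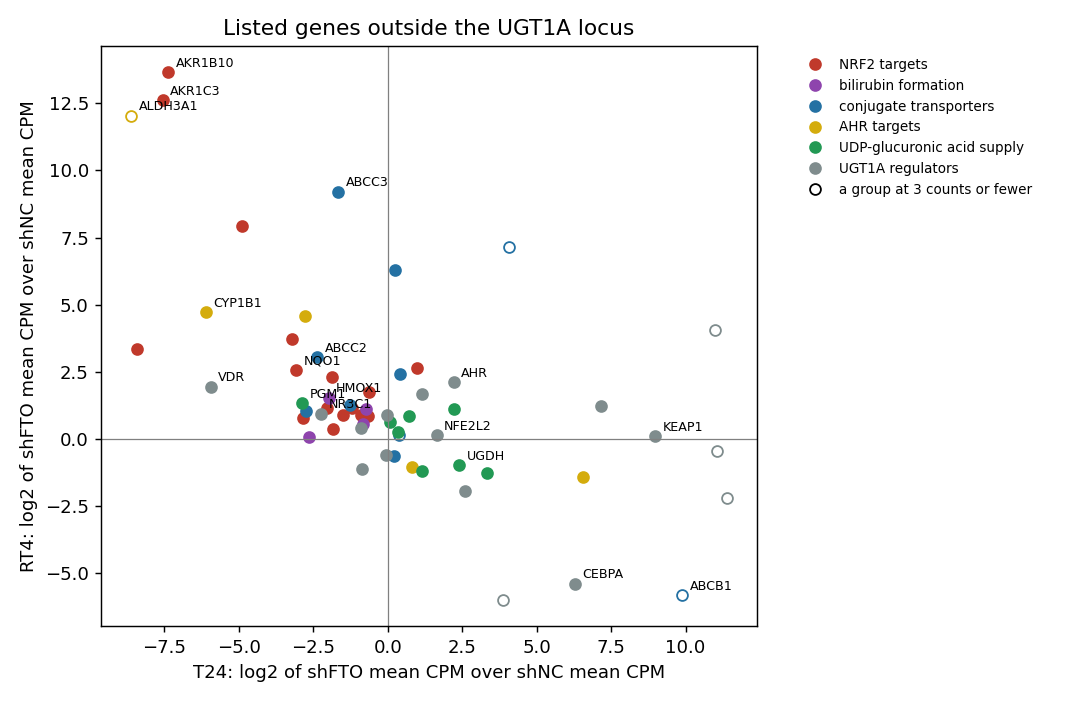
Log2 ratio of group means (shFTO over shNC) in T24 against RT4 for tested genes of 6 lists; open points have a group at 3 counts or fewer, drawn at the limit, and genes at or under that limit in both groups of a line are left out. NRF2 targets lie left of 0 in T24, except ME1, and above 0 in RT4, AHR lies right of and above 0, and KEAP1 lies far to the right and near 0 in RT4.

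Of 8 listed genes that make, carry or use UDP-glucuronic acid or split glucuronides, 6 rose and 1 fell in T24, and 5 rose and 3 fell in RT4, with medians of 0.92 and 0.45. Over all tested genes the shares were 37.2% up and 40.8% down in T24, and 38.6% and 40% in RT4. UGDH, which makes UDP-glucuronic acid, went against the locus, from 37.5 ± 2.12 to 198.7 ± 3.34 CPM in T24 and from 85.2 ± 2.97 to 43.5 ± 0.379 CPM in RT4. Its log2 changes were 2.41 (SE 0.043, edgeR BH-adjusted p = 1.17e-17) and -0.97 (SE 0.041, edgeR BH-adjusted p = 1.28e-12). PGM1, which makes glucose 1-phosphate, fell by 2.86 in T24 and rose by 1.33 in RT4. UGP2, which makes UDP-glucose, rose by 0.33 and 0.26, the latter -0.009846 on library totals.

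The enzymes that form bilirubin, the substrate of UGT1A1, all fell in T24, as 40.8% of all tested genes did, and 3 of the 4 rose in RT4, as 38.6% did. HMOX1, heme oxygenase 1, was 140.0 ± 4.90 and 35.4 ± 0.815 CPM in T24 shNC and shFTO, and 15.3 ± 2.24 and 44.5 ± 1.57 CPM in RT4. BLVRA, a biliverdin reductase, fell by 0.72 and rose by 1.11 on the log2 scale. BLVRB fell by 2.64 in T24 and was not called in RT4 (0.064, edgeR BH-adjusted p = 0.502). The list medians were -1.41 and 0.84.

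Of 10 tested transporters of conjugates, export pumps and uptake carriers, 5 rose and 4 fell in T24 and 7 rose and 2 fell in RT4, with medians of 0.22 and 1.84. Among all tested genes 78% were called in T24 (37.2% up, 40.8% down) and 78.6% in RT4 (38.6% up, 40% down). ABCC3 (MRP3), a pump for glucuronides, was 488.2 ± 6.77 CPM in T24 shNC, 154.7 ± 1.06 in T24 shFTO, 1.46 ± 0.220 in RT4 shNC and 857.5 ± 2.23 in RT4 shFTO. It was lowest in the group in which the locus had 0 counts and 589.4-fold higher in RT4 shFTO. ABCC2 (MRP2), the apical pump for bilirubin glucuronides, was 809.9 ± 12.4, 157.5 ± 0.990, 8.65 ± 0.302 and 71.8 ± 0.214 CPM in the same order. ABCC1 (MRP1) fell by 1.26 in T24 and rose by 1.26 in RT4.

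Listed genes of the UGT family at other loci, not all of them glucuronosyltransferases, showed another pattern. Of 9 tested, 8 rose and 1 (UGT8) fell in T24, where 37.2% and 40.8% of all tested genes did. In RT4, 2 rose and 1 (UGT8) fell, against 38.6% and 40%, and 1 gene was called when RT4 was fitted alone. UGT2B4, a bile acid enzyme of the liver, was 136.8 ± 2.61 CPM in T24 shFTO, 0.078 ± 0.067 in T24 shNC and 0 in RT4. UGT2B7, a steroid and opioid enzyme, was 14.7 ± 1.30 CPM in T24 shFTO, with 4 counts in all other libraries together. UGT8, which makes galactosylceramide, was 24.6 ± 1.48, 1.33 ± 0.580 and 21.9 ± 0.914 CPM in T24 shNC, T24 shFTO and RT4 shNC, with 3 counts in RT4 shFTO. The T24 median was 8.96, or 5.60 with bounds. The RT4 median was 0, as 6 of the 9 genes were at 3 counts or fewer in both RT4 groups. The 2 rises in RT4 rested on 4 counts of UGT2B7 and 5 of UGT3A2 over RT4 shFTO, with 0 in RT4 shNC. They were not both called without RT4 shNC replicate 2 or 3, where UGT2B7 had edgeR BH-adjusted p = 0.0593 and 0.0546. DESeq2 did not call UGT2B7 in RT4 either (DESeq2 adjusted p = 0.216). The UGT2B genes are near copies of each other, so their split is uncertain. The group with the lowest nonzero UGT1A sum was thus the group with the most UGT2B4 and UGT2B7, and it is the group with high hepatocyte markers, whose part here was not tested.

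Of 14 sulfation and methylation enzymes, which act on many of the same substrates, 8 rose and 5 fell in T24. In RT4, 5 rose and 6 fell. In T24 13 of the 14 were thus called, against 78% of all tested genes, and in RT4 11 were, against 78.6%. Among the RT4 rises, SULT2A1 rested on 3 counts over RT4 shFTO and SULT1B1 on 4, with 0 counts in RT4 shNC. In each of these genes 2 of the 3 RT4 shFTO libraries were at 0 (edgeR BH-adjusted p = 0.0307 and 0.0395). Both are named after their values were seen. The shares over all tested genes were 37.2% up and 40.8% down in T24, and 38.6% and 40% in RT4. PAPSS2, which makes the sulfate donor, fell by 2.20 in T24 and rose by 1.13 in RT4. PAPSS1 fell by 0.18 and 0.97. The first of these was not called without the low-count filter (edgeR BH-adjusted p = 0.127) or without T24 shFTO replicate 1 or 2 or T24 shNC replicate 3 (edgeR BH-adjusted p = 0.0842 to 0.0981). The medians were 0.92 and -0.13 (-0.12 with bounds), and SULT1A3 and SULT1A4 are near copies whose split is uncertain.

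For each member above 1 CPM in any group, the 3 genes outside the locus with the nearest pattern were taken by Pearson r of log2(CPM + 1) over the 12 libraries, which share 4 groups, so that r mostly ranks the order of the group means. Nearest to UGT1A7 were FMOD (r = 0.999), FOLR1 and LMO1. FOLR1, a folate receptor, was 328.6 CPM in T24 shNC and 1.71 CPM in RT4 shFTO, and 0.039 and 0.017 CPM in T24 shFTO and RT4 shNC. Nearest to UGT1A10 were DGKI, COL15A1 and MSC, at 24.5 to 29.4 CPM in RT4 shFTO and at most 0.218 CPM elsewhere. COL15A1, a basement membrane collagen, was also nearest to UGT1A8, followed by C10orf90 and XAF1. Nearest to UGT1A6 were SLC6A6, EEF2K and TRIO. SLC6A6, the taurine transporter, was 441.8, 113.5, 63.9 and 338.2 CPM in T24 shNC, T24 shFTO, RT4 shNC and RT4 shFTO, so unlike UGT1A6 it was well counted in every group. For UGT1A1 they were ALPK2, GPX1 and ZNF513. GPX1, a glutathione peroxidase, was 219.3, 89.5, 0.089 and 110.2 CPM in the same order, near 0 in the group where UGT1A1 was at 0. For UGT1A3 they were MMP28, INSYN1 and PIGB, for UGT1A4 PPP2R3B, PPT1 and HGS, and for UGT1A9 OVAAL, BEX5 and HLA-DPB1.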

How the data were processed

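The deposited table holds raw counts of 43557 genes in 12 libraries. Per the labels' protocols, poly(A) RNA was sequenced with paired-end reads of 150 bases. Per the submitters' processing notes, fastp 0.20.0, STAR 2.7.9a and featureCounts 2.0 were used, and the builds mm39, GRCh38 and hg38 are named without a role. The sources used here do not give the annotation release, the strand setting or the handling of reads that touch several genes. For genes that share exons these decide which reads count.

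Groups follow the labels. The members, lists and tests were chosen with earlier results of these data known. Counts were scaled with TMM and filtered by filterByExpr, and 23070 genes were kept. The 4 groups entered a single robust quasi-likelihood fit in edgeR 4.0.16 (R 4.3.3), with 8 residual degrees of freedom, which gave the change in T24, in RT4 and their difference, with Benjamini-Hochberg (BH) adjustment over all tested genes and a threshold of 0.05. The SE of a log2 change was its size divided by the root of F. For the 9 members no p-value is given, and a fold is a ratio of group mean CPM. Where a group had 0 counts, 3 counts over the group give a bound. Library totals were 31291047 to 102798895. Replicates of a group differed by more than sampling noise (chi-squared per degree of freedom 5.47 to 16.3).

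Named genes are the 9 members, of each of 10 lists the 3 tested genes with the highest mean CPM over the 4 groups, AHR, NFE2L2, HNF4A, CDX2 and FTO, and the 3 nearest genes by pattern per member. Some genes that this rule names, and 1 of the 5 motifs searched, are not reported here. Gene models are from GENCODE release 29 and promoters from RefSeq GRCh38.p14. The labels' batch number, equal to the replicate number, pairs the libraries. Residuals of same-numbered shFTO and shNC libraries had correlations of 0.101, -0.036 and 0.019 in T24, whereas the RT4 pairs had -0.098, -0.022 and -0.020. Alternatives were RLE scaling, library totals, each line fitted alone, DESeq2 1.42.0, all genes kept without a filter on low counts, only genes at 1 CPM or more in 3 libraries, a replicate block, each library left out, thinning to the smallest total, and shares per unshared base. The fitting code was tested on simulated data in which few genes differed. That test does not cover data in which most genes are called, as here.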

Additional observations from a re-analysis of the deposited data

Results flagged for a closer look

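Members of the locus whose libraries all moved one way in T24 and the other way in RT4 were UGT1A1, UGT1A3, UGT1A4, UGT1A5, UGT1A6, UGT1A7 and UGT1A10. Their log2 change in T24 was -0.72, -5.39, -2.51, -4.43, -5.20, -14.04 and -3.70, and in RT4 it was at least 10.45, 6.88, 7.72, 4.25, 12.06, 6.69 and 14.96. In UGT1A5, UGT1A7 and UGT1A10 the T24 value is a bound too. The difference between the lines was not tested for these genes.

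Of 31 named genes outside the locus, 24 changed differently in T24 and RT4 by the edgeR test of the difference itself, a share near the 75% called among all tested genes. The T24 change minus the RT4 change was below 0 on the log2 scale for the NRF2 targets TKT (-3.64) and TXNRD1 (-2.22). It was also below 0 for the pumps ABCC3 (-10.81), ABCC2 (-5.41) and ABCC1 (-2.52), and for HMOX1 (-3.51), BLVRB (-2.70) and BLVRA (-1.83). Other genes below 0 were CYP1B1 (-10.88), ALDH3A1 (-20.65, with RT4 shNC at the limit of 3 counts), PGM1 (-4.20), PAPSS2 (-3.34), NR3C1 (-3.18), CYP3A5 (-2.23), FTO (-1.04), DGKD (-1.33), USP40 (-1.03) and HJURP (-0.56). It was above 0 for UGDH (3.38), NFE2L2 (1.496), HNF4A (6.36), TIPARP (1.84), PAPSS1 (0.79) and UGT8 (5.46, as ratios of means). For HNF4A it was not called without RT4 shNC replicate 2 (edgeR BH-adjusted p = 0.94). For UGT2B4, CYP2B6 and CDX2, at 0 in RT4, the difference could not be estimated.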

How the results depend on the processing

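The locus kept its order of groups under each scaling and with each library left out. On library totals its level was 592.0 CPM in T24 shNC and 433.6 in RT4 shFTO, with log2 changes of -5.02 in T24 and 14.99 in RT4. Without the low-count filter these levels were 539.9 and 467.9 CPM and the RT4 change 15.14, and with RLE scaling it was 15.29. The RT4 change is a bound set by depth, and thinning every library to 31291047 counts gave 14.03. The UGT1A10 share of RT4 shFTO was 90.65% per unshared base and 82.64% per base of first exon. With 1 library left out, the level ranged from 539.4 to 555.9 CPM in T24 shNC and from 474.2 to 490.6 in RT4 shFTO, and the RT4 change from 14.38 to 15.26. Under the replicate block the T24 change of the locus was -4.84, and the counts of called genes were 17443 in T24, 17492 in RT4 and 16640 in the difference. No call of a named gene was lost under that block. The filter of 1 CPM in 3 libraries left 2, 1 and 1 called targets of PXR and CAR in T24, RT4 and the difference. DESeq2 called 4 of them and 7 genes of the UGT family at other loci in the difference. RT4 fitted alone called 1 of each list. On library totals the RT4 changes of UGP2, BLVRB, NFE2L2, USP40 and DGKD were -0.009846, -0.20, -0.12, -0.093 and -0.10. Those of BLVRB, NFE2L2 and DGKD were then called as falls (edgeR BH-adjusted p = 0.0154, 0.013 and 0.0162). UGP2 and USP40 were not called (edgeR BH-adjusted p = 0.819 and 0.0569). BLVRB in RT4 was -0.031 without the low-count filter and -0.0425 to 0.1257 with 1 library left out (lowest without RT4 shNC replicate 1), and HNF4A in RT4, with 5 counts in shNC and 4 in shFTO, was -3.22 without RT4 shFTO replicate 1 and at most 3.772 with another library left out. The cause of these changes was not tested.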
